A study of Mus musculus with 2 samples.

Results

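The genes described here encode 10 transcription factors and cofactors of red cell and platelet formation: Gata1, Gata2, Klf1, Gfi1b, Tal1, Lyl1, Lmo2, Nfe2, Zfpm1 and Ldb1. Members were taken by gene symbol from the platform annotation, which named a probe for 9 of the 10 genes and 11 probes in all, out of 19057 genes and 45281 probes on the array. Zfpm1, a cofactor of GATA1, had no named probe, so its expression was not analysed here and only its promoter was examined. Expression was measured on Illumina bead arrays in mouse cells labelled as leukaemic stem cells, with bone marrow as the labelled tissue. There was 1 PirBTM MLL-AF9 sample and 1 wild-type MLL-AF9 sample. Both came from C57BL/6J mice with an age label of 9 weeks, and both carried MLL-AF9, which joins the histone methyltransferase gene Kmt2a (MLL) to Mllt3 (AF9) and causes acute myeloid leukaemia. Pirb encodes an inhibitory immunoglobulin-like receptor of myeloid and B cells. What the PirBTM allele changes in it, how the fusion was introduced and how the cells were isolated are not stated by the labels. Each group had 1 array, so differences have no replicate check, no test between the groups was possible, and each ratio below compares these 2 samples.

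GATA1 and TAL1 work in a shared DNA-binding assembly. GATA proteins contact GATA motifs, the basic helix-loop-helix proteins TAL1 or LYL1 contact E-boxes as pairs with E proteins, and LMO2 and LDB1 bridge them. GATA2 serves stem cells, early progenitors and mast cells, and GATA1 takes its place at many sites as red cell and megakaryocyte precursors mature. KLF1 binds CACCC motifs and activates the adult beta-globin gene, GFI1B is a zinc finger repressor that recruits the demethylase KDM1A with RCOR1, and NFE2 pairs with small MAF proteins to drive platelet release.

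The promoter sequences of 5 of these genes are shown because they are the 4 genes whose probes stood above background in PirBTM only, followed by the gene with the lowest ratio. Each is the 250 bases before the most upstream RefSeq start of the gene in assembly GRCm38.p6, written 5′ to 3′ on the strand of the gene, with capitals marking GATA hexamers and CACCC, each on either strand. A hexamer is any of the 4 words AGATAA (the plain form), TGATAA (first letter changed), AGATAG (last letter changed) and TGATAG (both changed). The printed stretches are chr8:84901732-84901981 on the plus strand for Klf1, chr2:28621983-28622232 on the minus strand for Gfi1b, chr4:115056176-115056425 on the plus strand for Tal1, chrX:7967911-7968160 on the minus strand for Gata1 and chr6:88193641-88193890 on the plus strand for Gata2.
Klf1: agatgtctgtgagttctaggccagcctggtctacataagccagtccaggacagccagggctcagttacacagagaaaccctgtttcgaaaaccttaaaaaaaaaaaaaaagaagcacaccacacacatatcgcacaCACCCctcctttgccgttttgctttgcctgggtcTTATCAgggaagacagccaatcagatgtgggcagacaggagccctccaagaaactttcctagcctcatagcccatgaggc
Gfi1b: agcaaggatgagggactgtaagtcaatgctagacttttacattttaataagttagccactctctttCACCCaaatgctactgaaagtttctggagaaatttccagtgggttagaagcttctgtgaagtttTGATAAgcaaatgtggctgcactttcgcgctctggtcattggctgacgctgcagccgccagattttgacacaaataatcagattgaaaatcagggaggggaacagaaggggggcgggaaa
Tal1: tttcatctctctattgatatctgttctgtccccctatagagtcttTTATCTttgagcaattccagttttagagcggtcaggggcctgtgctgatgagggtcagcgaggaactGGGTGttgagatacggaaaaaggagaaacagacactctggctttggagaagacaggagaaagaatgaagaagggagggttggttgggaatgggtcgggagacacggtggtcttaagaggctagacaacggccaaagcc
Gata1: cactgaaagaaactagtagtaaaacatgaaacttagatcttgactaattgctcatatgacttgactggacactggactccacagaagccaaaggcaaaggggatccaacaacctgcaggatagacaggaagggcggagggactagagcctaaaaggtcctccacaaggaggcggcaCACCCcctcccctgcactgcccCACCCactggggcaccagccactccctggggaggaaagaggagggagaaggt
Gata2: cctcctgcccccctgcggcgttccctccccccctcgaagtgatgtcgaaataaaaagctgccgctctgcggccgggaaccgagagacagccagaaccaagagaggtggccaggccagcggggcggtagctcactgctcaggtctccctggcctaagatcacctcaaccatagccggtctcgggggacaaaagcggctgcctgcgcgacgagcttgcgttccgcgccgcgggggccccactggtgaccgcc

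A GATA hexamer and a CACCC stood together in the printed promoters of Klf1, Gfi1b and Tal1. The hexamer began 80 bases before the start in Klf1, 120 bases before it in Gfi1b and 205 bases before it in Tal1, and it lay on the opposite strand in Klf1 and Tal1. The Gata1 promoter held 2 CACCC and no GATA hexamer, and the printed Gata2 promoter held neither. RefSeq windows of 300 bases, the last 50 of them after the start, were given for 8 of the genes, with 12 windows in all, and not for Lmo2 or Nfe2. A GATA hexamer occurred in 4 of these 12 windows (33.3%), which belong to Klf1, Gfi1b, Tal1 and Ldb1, against 29.8% of all 32851 windows of the mouse table. The Ldb1 window with hexamers, not printed here, also held a CACCC, although Ldb1 was only 1.31-fold higher in PirBTM. The share of all windows holding both motifs was not counted, so the pairing does not set these genes apart. CACCC occurred in 10 of 12, against 57.5% of all windows, and the E-box CANNTG in 7 of 12, against 72.3%. The hexamers, CACCC and the E-box were counted independently, so a base can belong to more than 1 motif. The NF-E2 and AP-1 motif TGAGTCA occurred in 0 of 12 and in 5.2% of all windows. The share with a GATA hexamer was thus close to that of mouse promoters in general, and these matches describe the letters alone.

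The 9 measured genes fell into 2 kinds by detection. Klf1, Gfi1b, Tal1 and Gata1 were detected in PirBTM and not in wild type, while Gata2, Lmo2, Lyl1, Ldb1 and Nfe2 were detected in both. Detected means a detection p-value, the scanner's comparison of a probe with negative control beads, below 0.01. Background, inferred from these p-values, averaged 147.2 in PirBTM (SD 14.0) and 139.3 in wild type (SD 11.6). Of all 9432 genes detected in at least 1 sample, 12.1% were so in PirBTM only and 4.57% in wild type only, against 4 and 0 of these 9 genes. In a bulk sample, fewer cells of a type and less RNA per cell cannot be told apart.

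**Figure D1:**
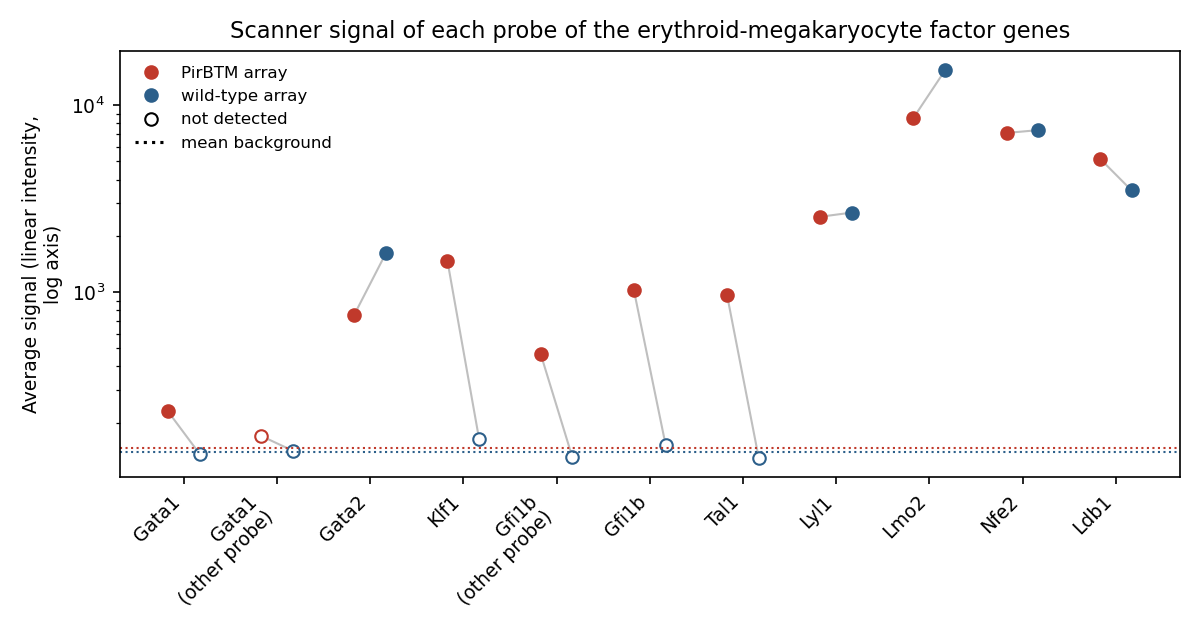
Scanner signal (linear intensity, log axis) of each of the 11 probes, with the PirBTM array in red left of the wild-type array in blue. Filled points were detected (detection p-value below 0.01), open points were not, and dotted lines mark the inferred mean background of each array; Klf1, Gfi1b and Tal1 drop to the dotted lines in wild type, and Lmo2, Nfe2, Ldb1, Lyl1 and Gata2 stay well above them on both.

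Klf1, the factor of the adult beta-globin gene, gave a scanner signal of 1465 in PirBTM, against 162.9 in wild type. Its detection p-value in wild type was 0.0449, so it missed the limit used here and passed the looser one of 0.05. After background correction and normalization its log2 intensity was 10.26 in PirBTM and 5.52 in wild type. Where a gene was dark in 1 sample, its ratio was bounded with the lowest intensity of any probe detected there, which was 5.95 in wild type. Klf1 was at least 19.8-fold higher in PirBTM by this bound on the corrected scale. The bound depends on the correction: without it, it was 7.12-fold, and the uncorrected signals themselves differed 8.99-fold.

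Gfi1b, the repressor needed for red cell and megakaryocyte maturation, had 2 probes. The brighter gave a signal of 1024 in PirBTM, against 152.6 in wild type (detection p-value 0.126), and was at least 13.0-fold higher on the corrected scale and 4.90-fold without background correction. The other gave 466.8 in PirBTM, against 130.7 in wild type (detection p-value 0.783), and was at least 4.67-fold higher on the corrected scale. Both probes were therefore well detected in PirBTM and dark in wild type, although their bounds differed.

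Tal1, the helix-loop-helix partner of GATA1, gave 962.2 in PirBTM, against 129.4 in wild type. The wild-type signal lay under the mean of its background (detection p-value 0.840). Tal1 was at least 12.0-fold higher in PirBTM on the corrected scale and 4.59-fold without background correction. The other bounds given below are likewise on the corrected scale. Of the 37 genes of the lists described below with a bound of 2-fold or more, all 37 had a smaller bound without correction, and 30 stayed at 2-fold or more.

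Gata1 was the faintest result of the 4. Its brighter probe gave 230.2 in PirBTM (detection p-value 0.0011), against 136.3 in wild type (0.512), a difference of at least 1.33-fold. Its other probe was detected in neither sample, with 170.0 in PirBTM and 141.6 in wild type. The Gata1 difference thus rested on 1 dim probe, and its size was not measurable at this signal.

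Gata2, the GATA factor of progenitors and mast cells, ran the other way. It gave a scanner signal of 756.8 in PirBTM, against 1617 in wild type, both detected. Its log2 intensity was 9.12 in PirBTM and 10.67 in wild type, a log2 ratio (PirBTM minus wild type) of -1.55, or 2.92-fold lower. The measuring error of 1 probe's log2 ratio had an SD of 0.30, from how far the 2 brightest probes disagreed in 2944 genes where both were detected in both samples. The Gata2 ratio lay 5.19 such SDs below 0. This SD covers measuring error on these arrays and not the variation between animals or RNA preparations.

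Lmo2, the bridge between the GATA and helix-loop-helix proteins, was bright on both arrays, with a signal of 8563 in PirBTM and 15411 in wild type. Its log2 ratio was -0.95, or 1.94-fold lower, just short of 2-fold. Lyl1, the helix-loop-helix relative of Tal1, gave 2531 in PirBTM and 2665 in wild type, with a log2 ratio of -0.27. Unlike the Tal1 probe, the Lyl1 probe was therefore well detected in wild type.

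Ldb1, the self-associating bridge protein, gave 5184 in PirBTM and 3502 in wild type, with a log2 ratio of 0.39. Nfe2, the platelet release factor, gave 7108 in PirBTM and 7361 in wild type, with a log2 ratio of -0.17. In measuring SDs these ratios came to 1.32 for Ldb1 and -0.56 for Nfe2, beside -0.90 for Lyl1 and -3.20 for Lmo2, so those of Nfe2 and Lyl1 were smaller than the measuring error. The 4 bright genes Lmo2, Lyl1, Nfe2 and Ldb1 and Gata2 each had a single probe, so none had a second probe as a check.

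**Figure D2:**
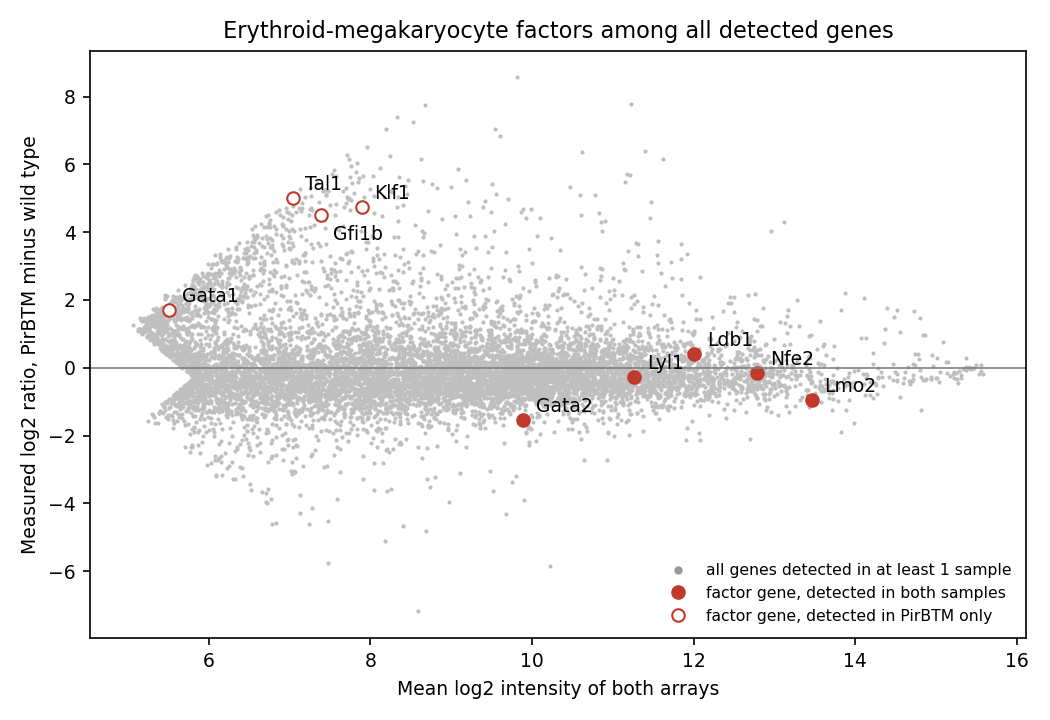
Measured log2 ratio (PirBTM minus wild type) against the mean log2 intensity of both arrays for the 9432 genes detected in at least 1 sample, with the 9 factor genes in red, filled where detected in both samples and open where detected in PirBTM only. Klf1, Gfi1b, Tal1 and Gata1 lie on the upper left edge, which holds genes dark in wild type, and Gata2 lies at a log2 ratio of -1.55.

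By the bound where there was one, 3 of the 9 genes (Klf1, Gfi1b and Tal1) were higher by 2-fold or more in PirBTM, against 12.8% of all detected genes, and 1 of 9 (Gata2) was lower by 2-fold or more, against 9.67%. The share lower was near that of all genes. The median log2 ratio of the 9 genes was 0.39, against -0.15 over all genes. Because cyclic loess moved that median to 0.08 and median scaling to -0.02, ratios were also set against it: Gata2 lay -1.40 from it, Lmo2 -0.80, Lyl1 -0.12, Nfe2 -0.01 and Ldb1 0.54. Over the 7 alternative ways of processing, the distance ranged from -1.45 to -1.26 for Gata2, -1.05 to -0.77 for Lmo2 and 0.39 to 0.58 for Ldb1. The unadjusted ratio of Nfe2 was -0.17 as reported and 0.07 after cyclic loess, so it had no settled direction.

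**Figure D3:**
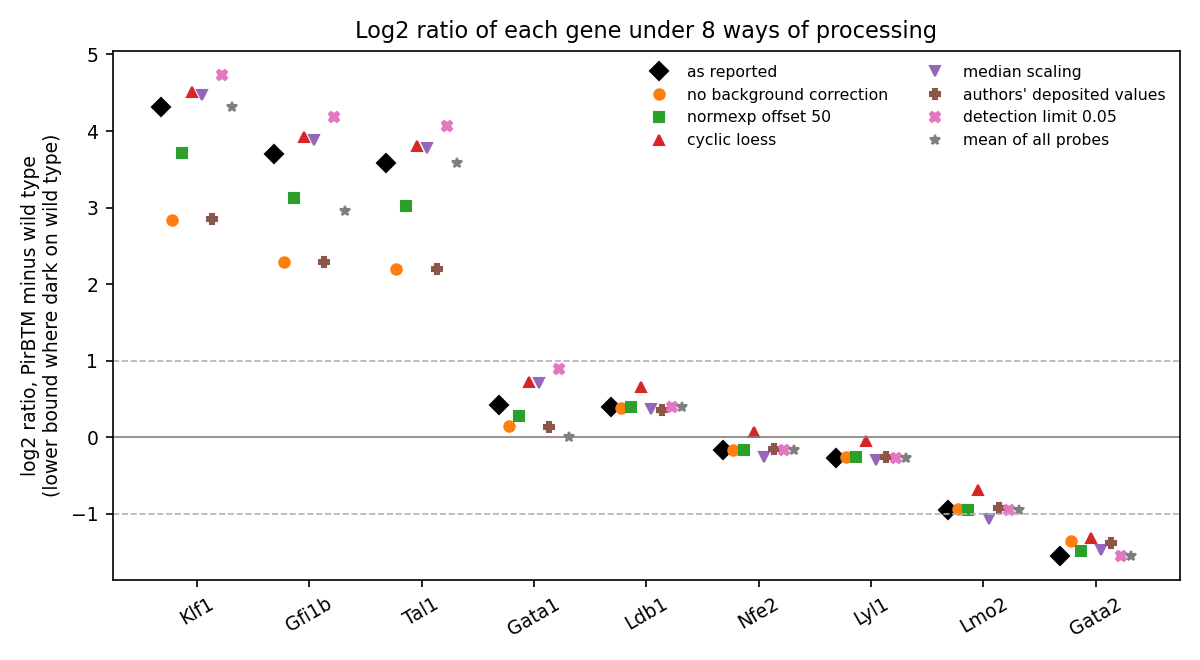
Log2 ratio of each of the 9 genes (PirBTM minus wild type; the lower bound where the gene was dark in wild type) as reported, black diamonds, and under 7 alternatives, other symbols. Dashed lines mark 2-fold either way; Klf1, Gfi1b and Tal1 stay above the upper line throughout and Gata2 below the lower one, while Lmo2 crosses the lower one only after median scaling and Gata1 stays between the lines.

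Genes encoding proteins that work with these factors had log2 ratios between -1.14 and 0.94 by their brightest probes. Of 28 such genes, 27 had a named probe and 19 were detected, all 19 on both arrays. By the brightest probe 0 reached 2-fold higher, against 12.8% of all detected genes, and 1 reached 2-fold lower, against 9.67%. Counts this small do not set the partner genes apart. Their median log2 ratio was 0.23, against -0.15 over all genes. Tcf12, an E protein that pairs with TAL1 and LYL1, was 2.20-fold lower. It was followed by Ssbp2, a single-stranded DNA-binding protein that stabilises LDB1, with a log2 ratio of -0.995, Hhex, a homeobox factor of progenitors, with -0.70, and Tcf4, another E protein, with -0.47. The highest were Ssbp4, a relative of Ssbp2, with a log2 ratio of 0.94, Runx1, a factor that joins the same enhancers, with 0.90, Lmo4, a LIM-only relative of Lmo2, with 0.71, and Bach1, a haem-sensing partner of small MAF proteins, with 0.69. The other Runx1 probe gave 1.01, just past 2-fold. Of the 8 partner genes with 2 or more detected probes, 4 had a probe of opposite sign, namely Lmo4, Rcor1, Chd4 and Tcf3. The other Lmo4 probe gave -0.38. Kdm1a and Rcor1, which act with GFI1B, had log2 ratios of 0.31 and 0.33, and the other Rcor1 probe gave -0.38. The relatives Gata3, Tal2, Lmo1, Ldb2 and Zfpm2 and the small MAF genes Mafk and Maff were detected in neither sample, and Mafg was detected on both arrays with a log2 ratio of 0.37. These partner genes were named as examples after their values were seen, apart from the 4 highest and 4 lowest.

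Genes that GATA1, TAL1 and KLF1 are known to act on in red cells were higher in PirBTM by their brightest probes. Of 42 such genes, 36 had a named probe and 34 were detected in at least 1 sample. By the brightest probe all 34 had a positive log2 ratio, with a median of 2.85. By the bound 28 of them reached 2-fold higher, against 12.8% of all detected genes. All 34 were detected in PirBTM and 17 in wild type. Of the 16 genes with 2 or more detected probes, 4 had another probe that was lower in PirBTM. Its log2 ratio was -1.18 for Slc25a37, a mitochondrial iron importer, and -0.71 for Uros, an enzyme of haem synthesis. It was -0.64 for Sptb, a spectrin of the red cell membrane, and -0.48 for Fech. In the same order these probes had dim log2 intensities in wild type of 7.30, 6.46, 6.66 and 6.15, where the lowest detected value was 5.95. The brightest probes of the 4 genes gave log2 ratios of 0.73, 1.72, at least 5.07 and 0.62. The probes of these 4 genes thus disagreed in direction, and which of them is right was not tested. The highest were Car1, a carbonic anhydrase, with a log2 intensity of 13.07 in PirBTM and 6.02 in wild type, Slc4a1, the band 3 anion exchanger, with 13.81 in PirBTM and 7.43 in wild type, and Aqp1, a water channel, with 12.01 in PirBTM and 6.15 in wild type. Car2, a further carbonic anhydrase, was dark in wild type and at least 42.6-fold higher in PirBTM. The erythropoietin receptor gene Epor, named after its value was seen, was likewise dark in wild type and at least 4.62-fold higher.

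The smallest red cell values were those of Bcl2l1, Urod, Fech and Tspo2. Bcl2l1, a survival gene, had a log2 ratio of 0.41, Urod and Fech, enzymes of haem synthesis, had 0.54 and 0.62 (the brightest of 3 Fech probes, which ran down to -0.48), and Tspo2, a membrane protein of erythroid cells, was at least 1.60-fold higher at low signal. The globin genes Hba-a1, Hbb-bs and Hbb-bt were bright on both arrays by their brightest probes. Hba-a1 reached a log2 intensity of 15.37 in PirBTM and 13.66 in wild type, near the top of the scale, so its ratio of 1.71 is uncertain; globin genes are also near-identical copies whose probes can share signal. The Hbb-b2 probe gave a signal of 1716 in PirBTM and 183.7 in wild type, little above background, with a log2 ratio of 4.34. The other probes also differed, with log2 ratios up to 5.09 for Hbb-bs and 3.75 for Hbb-bt.

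Megakaryocyte and platelet genes also had higher measured values in PirBTM. Of 19 genes, 17 had a named probe and 14 were detected, all 14 in PirBTM and 7 in wild type. By the bound 9 reached 2-fold higher and 0 reached 2-fold lower, against 12.8% and 9.67% of all detected genes. Their median log2 ratio was 1.43. Pf4, platelet factor 4, was 14.4-fold higher, and Tubb1, the platelet beta-tubulin regulated by NFE2, at least 12.8-fold. Ppbp, a platelet chemokine, was at least 7.64-fold higher and Gp5, a subunit of the von Willebrand factor receptor, at least 5.60-fold. Itga2b, the integrin alpha chain of platelets, had a log2 ratio of 0.63. Clec1b, Mmrn1 and F2rl2 were detected in PirBTM only, with bounds of at most 1.23-fold, so no size could be given. Nfe2 itself had nearly equal signal on both arrays, as given above.

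Genes of mast cells, basophils and eosinophils, of which GATA2 is a known regulator, went both ways. Of 16 genes, 15 had a named probe and 8 were detected. Of these 8, 4 reached 2-fold higher, against 12.8% of all detected genes, and 1 reached 2-fold lower, against 9.67%. The share lower was thus near that of all genes. Prss34, a basophil protease, was at least 7.53-fold higher, Epx, eosinophil peroxidase, at least 6.98-fold, Hdc, histidine decarboxylase, 3.67-fold, and Fcer1a, the alpha chain of the IgE receptor, at least 3.61-fold. Cpa3, a carboxypeptidase of mast cells, was 3.43-fold lower, with log2 ratios between -1.80 and -1.26 over its 3 probes. Kit, the stem cell factor receptor of progenitors and mast cells, had a log2 ratio of -0.71. Prg2, an eosinophil granule protein, had -0.13, and Mcpt8, a basophil protease, lay near background. Ms4a2, Tpsab1, Tpsb2 and Cma1, markers of mature mast cells and basophils, were detected in neither sample.

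**Figure D4:**
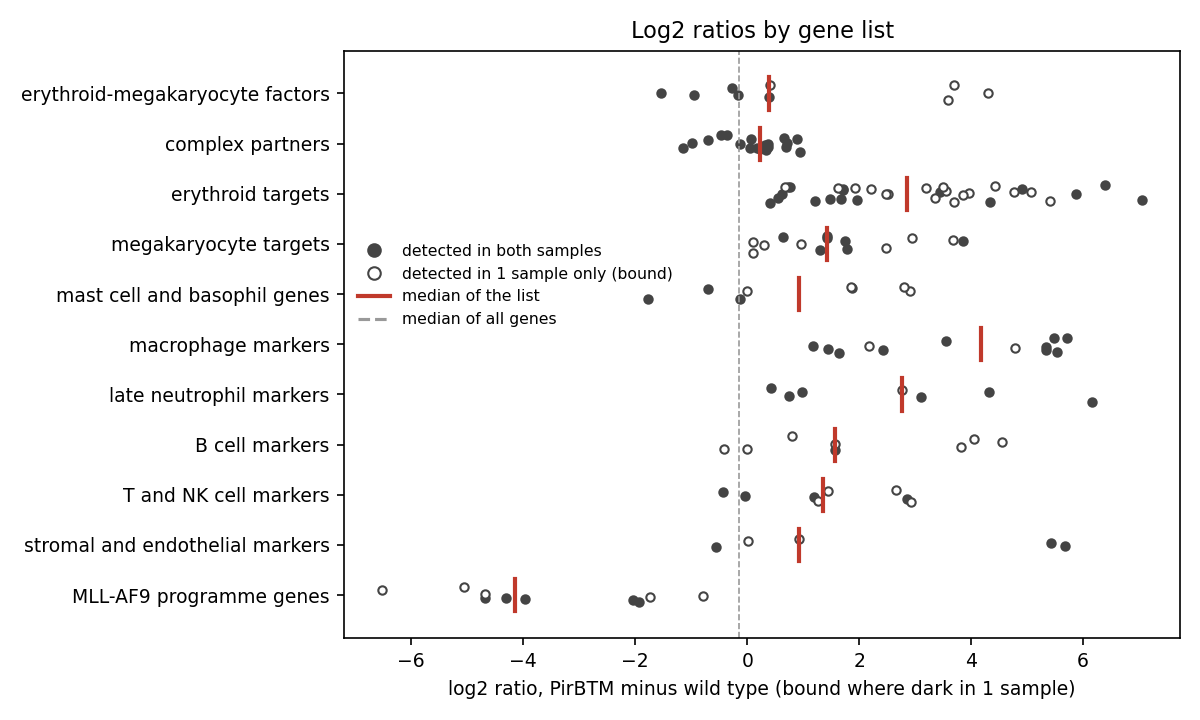
Log2 ratio (PirBTM minus wild type) of each gene detected in at least 1 sample, by gene list, with open points for genes detected in 1 sample only, at their bound, red bars for list medians and a dashed line for the median of all genes at -0.15. The 34 red cell genes all lie above 0 with a median of 2.85, the 19 partner genes lie between -1.14 and 0.94, and the MLL-AF9 genes all lie below 0.

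Summed over each list, markers of other marrow cells also had higher intensity in PirBTM, although some single genes did not. All 12 macrophage markers were detected in PirBTM and 10 in wild type. Their summed normalized intensity was 78628 in PirBTM and 10038 in wild type. C1qb and Mrc1 had the highest log2 ratios, 5.72 and 5.54, and Adgre1 and Vcam1 the lowest, 1.17 and 1.45. For late neutrophil markers the sum was 192960 in PirBTM and 75695 in wild type, with 7 of 8 detected in PirBTM and 6 in wild type; Retnlg (6.16) and Ltf (4.31) were highest and Camp (0.42) and Lcn2 (0.75) lowest. Lcn2 and Ltf had log2 intensities of 15.47 and 15.27 in PirBTM, as near the top of the scale as Hba-a1, so their ratios and their order are uncertain too. For B cell markers the sum was 8611 in PirBTM and 1940 in wild type, with 7 of 9 detected in PirBTM and 2 in wild type. Fcrla was at least 23.5-fold higher and Pou2af1 at least 16.6-fold, Pax5 was detected in neither sample, and Vpreb1 and Igll1 lay near background. For T and NK cell markers the sum was 10329 in PirBTM and 7558 in wild type, with 8 of 9 detected in PirBTM and 4 in wild type. Klrd1 was at least 7.57-fold higher and Ccl5 7.24-fold, Prf1 had a log2 ratio of -0.05, and the brightest Cd8b1 probe gave -0.44 while its other detected probe was strongly positive. For stromal and endothelial markers the sum was 22577 in PirBTM and 1356 in wild type, with 5 of 9 detected in PirBTM and 3 in wild type. The sum in PirBTM came mostly from Cxcl12 and Bgn, with log2 intensities of 14.05 and 12.22, and the median log2 ratio of the 5 detected genes was 0.92. Cxcl12 (5.68) and Bgn (5.43) were highest, Col4a1 (-0.56) lowest and Cdh5 near background, while Col1a2, Col3a1, Kdr and Lepr were detected in neither sample. The part of these cells, or of red cell precursors among the profiled cells, in the differences of Klf1, Gfi1b, Tal1 and Gata1 was not tested.

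Genes of the MLL-AF9 leukaemia programme, the check of the cell type in the labels, were all lower in PirBTM. All 10 were detected in wild type and 5 in PirBTM, with a summed intensity of 1647 in PirBTM and 19527 in wild type. Igf2bp3 was at least 91.6-fold lower and Hoxa5 at least 33.5-fold, and the smallest bounds were those of Mecom (at least 1.74-fold) and Hoxa10 (at least 3.34-fold). The array labelled PirBTM thus carried much less of the summed signal that marks these leukaemic cells in wild type. Mef2c stayed bright there, with a signal of 1240 in PirBTM, against 3738 in wild type. As given above, Gata2, Lmo2 and Kit were also lower in PirBTM. Whether their lower signals share a source with that of the MLL-AF9 genes was not tested. No probe was named Pirb, so the genotype was not checked on the arrays.

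Few of the genes next to these factors on the chromosome differed by 2-fold. The nearest protein-coding gene on each side was taken from the RefSeq table, a rule set after the factors' values were seen. Of 20 neighbours, 18 had a named probe and 14 were detected, of which 2 reached 2-fold higher and 1 reached 2-fold lower, close to the 12.8% and 9.67% of all genes. Pdzk1ip1, beside Tal1, was detected in PirBTM only and at least 2.68-fold higher, whereas Stil, on the other side of Tal1, was detected in neither sample. Nfix, beside Lyl1, was 2.22-fold higher, and Hnrnpa1, beside Nfe2, 2.12-fold lower. Gcdh and Dnase2a, on either side of Klf1, had log2 ratios of -0.45 and 0.15, and Gtf3c5 and Tsc1, on either side of Gfi1b, -0.47 and -0.27.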

How the data were processed

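Total RNA of 2 samples, 1 PirBTM and 1 wild type, was hybridised to Illumina bead arrays at neighbouring positions of 1 BeadChip by the names in the labels, so array position and genotype cannot be told apart. Per the file headers, the authors deposited the average signal intensity of 45281 probes with their detection p-values. The intensity values were linear and neither background subtracted nor normalized between arrays (medians of 161.3 in PirBTM and 148.2 in wild type). A second deposited table of intensity values ranks the probes as the scanner table does, and its sorted columns differ by at most 0.16%; it was used as an alternative. No source used here names the software of either table.

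Background was corrected with limma 3.58.1 (nec, offset 16, negative controls inferred from those p-values) in R 4.3.3, followed by quantile normalization and log2. These steps were tried on simulated data in which only bright probes changed, as many up as down. That trial therefore did not cover genes dark in 1 sample or unbalanced changes. The annotation named 1 gene for 34885 probes, 18 probes had several and 10378 were unnamed. The probe brightest over both arrays stands for its gene. Ratios are PirBTM minus wild type. A gene detected in 1 sample only has a bound, set against the higher of its dim value and the lowest value detected there, and a bound that would fall under 1-fold was set to 0 on the log2 scale. The median of a list is taken with bounds. Precision is limited by the number of arrays, and no replicate error exists. The text names every member and its probes, the 4 highest and 4 lowest genes of the partner, red cell, megakaryocyte and mast cell lists and the 2 highest and 2 lowest of the others; further names were chosen after their values were seen. The members and lists were chosen with earlier results of these data known. Motifs were counted in RefSeq windows by a Python 3.11.15 script. A planned comparison of protein sequences was not made here, and no paired analysis applies to 1 sample per group.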

Additional observations from a re-analysis of the deposited data

How the results depend on the processing

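The count of 3 genes at least 2-fold higher held under all 7 alternatives, and no result changed sign among those at least 2-fold from 0. Of 154 values recomputed over 22 results, 104 were classed as unmoved and 50 as moved. For log2 ratios and medians the limit was the measuring SD of 0.30. The counts of genes were judged by the ratio of the counts instead. After median scaling 2 genes were at least 2-fold lower, since Lmo2 gave -1.07. With the mean of all probes the median of the 9 genes was 0.00, because Gata1 then had no bound above 1-fold (0.00), and the bound of Gfi1b was 2.96. After cyclic loess the bound of Gata1 was 0.72.

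Without background correction the bounds were 2.83 for Klf1, 2.29 for Gfi1b and 2.20 for Tal1; the authors' deposited values gave 2.84, 2.29 and 2.19, an offset of 50 gave 3.71, 3.12 and 3.02, and a detection limit of 0.05 gave bounds of 4.18 for Gfi1b, 4.07 for Tal1 and 0.89 for Gata1. At that limit Klf1 was detected in both samples and 4.73 is its measured log2 ratio. By construction, keeping more background in the signal shrinks the ratios of dim genes.

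List medians without background correction were 1.87 for red cell genes, 0.83 for megakaryocyte genes, 0.44 for mast cell genes, 3.11 for macrophage, 1.53 for neutrophil, 1.10 for B cell, 0.89 for T and NK cell and 0.37 for stromal markers, and -3.03 for MLL-AF9 genes. In the same order the authors' values gave 1.86, 0.82, 0.43, 3.15, 1.501, 1.09, 0.87, 0.34 and -3.05. An offset of 50 gave 2.32 for red cell, 3.77 for macrophage, 2.24 for neutrophil and -3.81 for MLL-AF9 genes. The detection limit of 0.05 gave 3.21 for red cell, 0.074 for mast cell, 3.10 for neutrophil, 1.84 for T and NK cell and 1.40 for stromal genes. The mean of all probes gave 1.84 for red cell, 0.50 for mast cell, 3.13 for macrophage, 0.98 for neutrophil and -2.97 for MLL-AF9 genes. The cause of these shifts was not tested. No paired analysis was possible because each group had 1 sample, and signal near background limits the size of every difference of Gata1.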
